A study of Mus musculus with 8 samples.

Results

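Transcripts of the Notch pathway were followed in DN3 thymocytes, the CD4 and CD8 double-negative stage at which T cell progenitors pass β-selection. The 10 genes were chosen by symbol from the 16538 genes of the deposited table, and all 10 were found. They are the receptors Notch1, Notch2 and Notch3, the nuclear partners Rbpj and Maml1, and the targets Hes1, Hes5, Dtx1, Nrarp and Myc. The gene of the pre-TCR α chain, Ptcra, was not among the 10 and is given with the other Notch targets. The table's values are RPKM, in which each gene's reads are divided by library size and by the length of the gene, here with its introns.

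The samples were DN3 cells sorted from 6-week-old C57BL/6 mice, with 4 libraries from Sel1l-f/f mice (Ctrl, titled WT by the labels) and 4 from Sel1l-f/f mice that also carried hCD2cre (Sel1l CKO). Both groups therefore carried the floxed alleles, and the groups differed by the Cre transgene, which is driven by human CD2 sequences and acts in T cell progenitors from before the DN3 stage. SEL1L is the adaptor of the HRD1 ubiquitin ligase in endoplasmic reticulum-associated degradation (ERAD). The comparison asks how transcripts of the Notch pathway stood when this adaptor gene was deleted.

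Notch receptors are bound by ligands on neighbouring cells, which in the thymus are mainly carried by epithelial cells. ADAM10 and γ-secretase then cut the receptor, and its intracellular part enters the nucleus, where it joins RBPJ and a Mastermind protein on target genes. DN3 thymocytes depend on this signal, and several targets, among them Notch3, Hes1, Dtx1 and Ptcra, are used to follow it. Levels in sorted bulk cells cannot tell fewer cells of a type from less RNA per cell.

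The libraries held 32900251 to 50401358 counted reads. Sel1l itself was at 1.57 to 1.83 RPKM in Ctrl and at 0.876 to 1.32 RPKM in Sel1l CKO (log2 fold change -0.64, SE 0.14, limma, Benjamini-Hochberg adjusted p = 0.0429), and this call was lost when any of the 4 Ctrl libraries or Sel1l CKO replicate 1 or 2 was left out (limma adjusted p between 0.0834 and 0.123). For Sel1l, replicates 1 and 2 alone gave a log2 fold change of -0.95 and replicates 3 and 4 alone -0.32. The difference between these pairs of replicates was 0.63 (SE 0.13, limma interaction, unadjusted p = 0.00202, adjusted p = 0.128). The table has 1 value per gene, so the deleted exons could not be read apart from the rest of Sel1l. The 9 DN3 markers summed to 294 to 322 RPKM in Ctrl and to 240 to 280 RPKM in Sel1l CKO, and Lck, the Src family kinase of the pre-TCR, had the highest mean RPKM of them (57.4 to 76.1 RPKM). The DN3 sums did not overlap between genotypes. Of the 8 DN3 markers tested, 0 passed by limma at an adjusted p under 0.05, against 3.85% of all genes. At an unadjusted p under 0.05, 4 were lower in Sel1l CKO (limma), against 10.3% of all genes. The log2 fold change was below 0 for 7 of the 8, against 52.4% of all genes, with a median of -0.29. The DN3 list shares Ptcra, Il2ra and Bcl11b with the Notch targets given last, and its part in the differences of the Notch genes was not tested. The 8 markers of later stages summed to 4.01 to 6.12 RPKM in Ctrl and 4.17 to 8.58 RPKM in Sel1l CKO, led by Cd8a (0.569 to 1.81 RPKM). In Sel1l CKO these sums were 6.30 to 8.58 RPKM in replicates 1 and 2, above every Ctrl library. They were 4.17 to 4.95 RPKM in replicates 3 and 4. The part of later stages in the differences of the Notch genes was not tested. Replicates 3 and 4 stood apart from replicates 1 and 2 in 101 of 10177 genes (0.992%, limma adjusted p under 0.05 with genotype in the model). No label names a batch, and the split was taken from earlier results of these same data. Tests between the sets therefore describe a grouping already seen to differ. Every member is also given within these 2 sets.

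To show what lies at the start of the genes that separated the genotypes best or are classical targets, the 250 bases upstream of the RefSeq start (GRCm38.p6) are printed for Hes5, Nrarp and Notch3. Capitals mark the core letters of the RBPJ motif, TGGGAA or its reverse complement TTCCCA. The windows are chr4:154960673-154960922 (plus strand), chr2:25180508-25180757 (plus strand) and chr17:32166891-32167140 (minus strand), each written 5′ to 3′ along the gene.
Hes5: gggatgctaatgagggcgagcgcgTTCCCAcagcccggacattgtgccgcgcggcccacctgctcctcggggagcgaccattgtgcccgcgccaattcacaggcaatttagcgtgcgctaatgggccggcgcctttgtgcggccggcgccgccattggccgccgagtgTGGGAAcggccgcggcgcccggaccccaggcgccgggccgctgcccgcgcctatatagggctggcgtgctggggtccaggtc
Nrarp: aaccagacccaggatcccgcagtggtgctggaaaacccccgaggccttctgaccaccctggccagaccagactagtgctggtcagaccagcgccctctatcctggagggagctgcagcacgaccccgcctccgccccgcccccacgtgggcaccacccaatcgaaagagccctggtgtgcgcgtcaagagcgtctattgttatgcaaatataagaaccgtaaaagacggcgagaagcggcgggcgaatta
Notch3: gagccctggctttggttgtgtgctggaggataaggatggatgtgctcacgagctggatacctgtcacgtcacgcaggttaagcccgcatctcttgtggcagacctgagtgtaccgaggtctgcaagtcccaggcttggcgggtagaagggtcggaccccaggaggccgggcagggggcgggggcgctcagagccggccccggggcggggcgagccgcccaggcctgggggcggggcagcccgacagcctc

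The Hes5 window held TTCCCA at -226 and TGGGAA at -82, counted from the start with -1 as the nearest upstream base. The Nrarp and Notch3 windows held neither. RefSeq windows were matched for 8 of the 10 genes, 9 windows in all because Rbpj had 2 starts. Hes1 and Myc had no window, so their promoters were not searched. Of the 8 genes searched, Hes5 and Rbpj were those with a match. Among 32851 mouse promoter windows of this length, 21.6% held the core on either strand. The N-box letters bound by HES proteins, CACNAG on either strand, stood in the windows of Notch1, Notch2, Notch3, Dtx1 and Nrarp and in 36.7% of all windows. Sites outside these windows were not searched.

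On reads per kilobase of exon, scaled to library size, the scale on which genes can be compared, Notch1 had the highest mean of the 10 in Ctrl (140 ± 6.96, SD, n = 4). Its Ctrl values lay above all those of Notch3, Myc and 3 of the 4 of Hes1, while Hes1 in Ctrl replicate 3 (152) was above every Notch1 value. This scale takes the reads as counted on exons, which was not stated for the counting. Notch3 followed at 110 ± 7.76 and Myc at 108 ± 8.12 on the same scale. Notch3 and Myc overlapped each other, and so did Myc and Hes1 (84.8 ± 51.9). Dtx1 stood at 32.9 ± 3.14, Maml1 at 9.82 ± 1.26 and Notch2 at 6.69 ± 0.789, each apart from the next. Rbpj (4.61 ± 0.319) and Nrarp (4.32 ± 0.709) overlapped, and Hes5 was the lowest at 2.28 ± 0.806. Hes1 varied most among the Ctrl libraries, with a coefficient of variation of 61.2% on RPKM, and Notch1 varied least, with 4.97%.

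**Figure D1:**
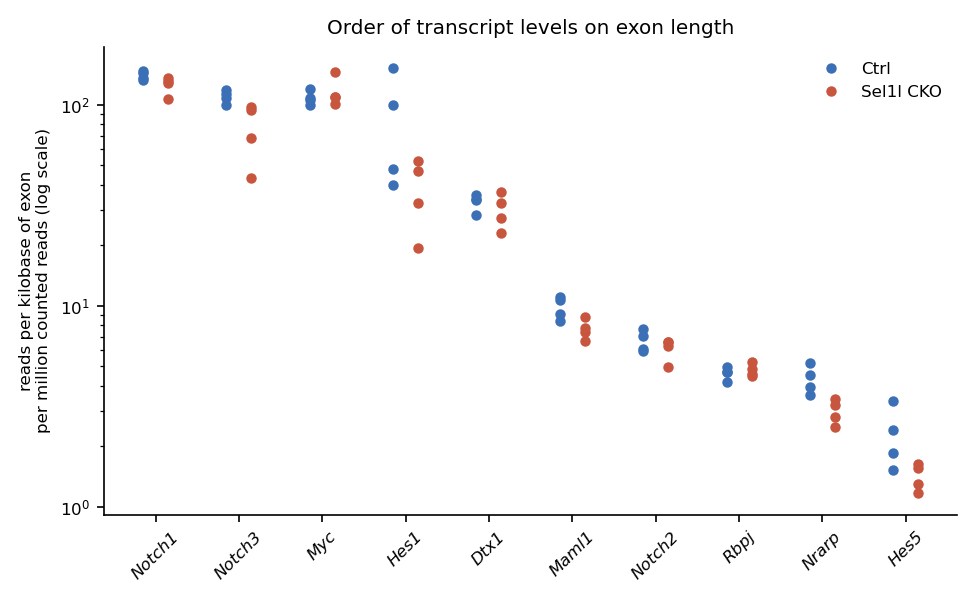
Reads per kilobase of exon, scaled to the counted reads of each library (log axis), of the 10 genes, ordered by the Ctrl mean, with 1 point per library (4 Ctrl, 4 Sel1l CKO). By Ctrl mean Notch1 was highest and Hes5 lowest, and the 4 Ctrl points of Hes1 spread from 39.7 to 152.

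None of the 10 genes passed the genotype test at an adjusted p under 0.05 (limma on log2 of RPKM + 0.01 with Benjamini-Hochberg adjustment), against 3.85% of the 10177 genes tested, of which 0.894% were lower and 2.96% higher in Sel1l CKO. At an unadjusted p under 0.05, 5 of 10 were lower in Sel1l CKO (Notch3, Maml1, Hes1, Hes5 and Nrarp), against 10.3% of all genes, and none was higher, against 9.4%. Limma voom on recovered reads also called 0 of the 10, against 4.27% of the genes it tested, and gave the same 5 at an unadjusted p under 0.05. The log2 fold change was below 0 for 8 of 10 genes, against 52.4% of all genes, and the median was -0.26 against -0.01 for all genes. The study describes its replicates as independent and biological, and the labels do not tie a library to a mouse.

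**Figure D2:**
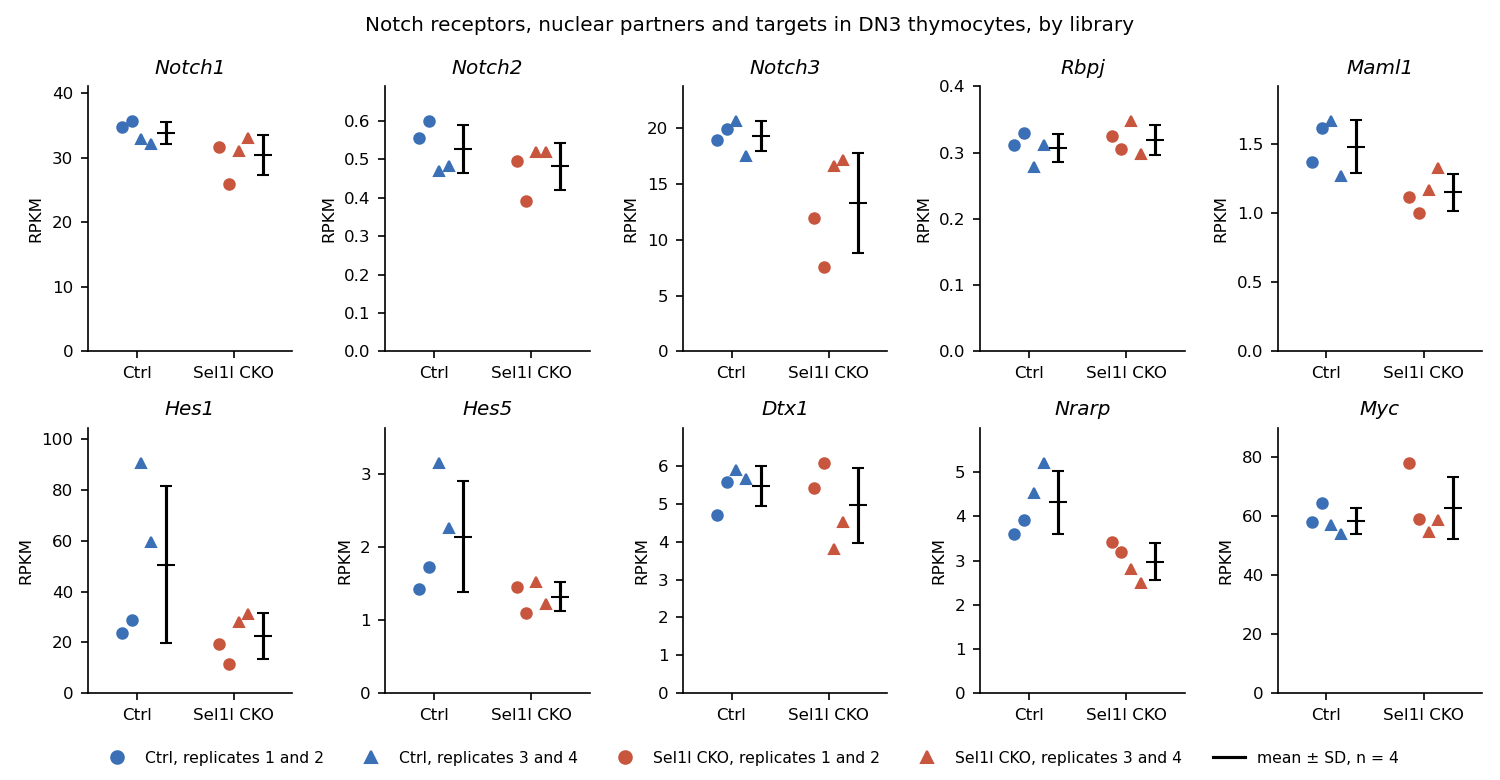
RPKM (linear axis from 0) of the 10 genes in each of the 8 libraries, with circles for replicates 1 and 2, triangles for replicates 3 and 4, and bars for mean ± SD (n = 4). Notch3 and Nrarp had every Sel1l CKO library below every Ctrl library, while Hes1 in Ctrl split by replicate set.

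Of the receptors, Notch3 differed most. Notch3, itself a target of Notch1 signalling (GRCm38 chromosome 17, from 32120820 to 32166852 on the minus strand), measured 19.0, 19.9, 20.7 and 17.5 RPKM in the Ctrl libraries, in the order of their replicate numbers, against 11.97, 7.61, 16.6 and 17.2 RPKM in Sel1l CKO. Every Sel1l CKO library lay below every Ctrl library, but replicates 3 and 4 did so narrowly. The mean in Sel1l CKO was 69.1% of Ctrl, with a log2 fold change of -0.60 (SE 0.23, limma adjusted p = 0.204; two-sided exact permutation test p = 0.0286, the smallest that 4 against 4 allows). It was -0.36 without Sel1l CKO replicate 2 and -0.31 with array weights. Notch3 and Nrarp were the 2 of 10 genes with every Sel1l CKO library below every Ctrl library, which held for 6.32% of all genes, and none had the opposite order (7.4% of all genes). For Notch3, replicates 1 and 2 alone gave a log2 fold change of -1.03 and replicates 3 and 4 alone -0.17, and the difference between the sets was 0.85 (SE 0.28, limma interaction, unadjusted p = 0.018, adjusted p = 0.223).

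Notch1, the receptor that drives T lineage commitment (chromosome 2, 26457903 to 26516663, minus strand), measured 34.8, 35.7, 32.8 and 32.1 RPKM in Ctrl and 31.7, 25.9, 31.0 and 33.0 RPKM in Sel1l CKO. The groups overlapped, and Sel1l CKO replicate 2 was the lowest library. The log2 fold change was -0.16 (95% interval -0.35 to 0.03, limma adjusted p = 0.326), and -0.09 without Sel1l CKO replicate 2. Replicates 1 and 2 alone gave -0.30, and replicates 3 and 4 alone -0.02. Notch2, a receptor used mainly in B cells and other lineages (chromosome 3, 98013527 to 98150361, plus strand), was at 0.469 to 0.601 RPKM in Ctrl and 0.391 to 0.520 RPKM in Sel1l CKO. Its log2 fold change was -0.13 over all libraries (SE 0.13, limma adjusted p = 0.600), -0.38 within replicates 1 and 2 and 0.12 within replicates 3 and 4, so its direction turned between the sets. It was -0.06 without Ctrl replicate 2 and -0.03 without Sel1l CKO replicate 2.

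Of the nuclear partners, Rbpj, the DNA-binding protein of the complex (chromosome 5, 53466152 to 53657362, plus strand), was at 0.278 to 0.329 RPKM in Ctrl and 0.298 to 0.348 RPKM in Sel1l CKO. The groups overlapped, with a log2 fold change of 0.05 (95% interval -0.19 to 0.29, limma adjusted p = 0.814), and -0.02 within replicates 1 and 2. Maml1, the coactivator that bridges to histone acetyltransferases (chromosome 11, 50255634 to 50292311, minus strand), measured 1.37, 1.61, 1.67 and 1.27 RPKM in Ctrl and 1.12, 1.001, 1.16 and 1.32 RPKM in Sel1l CKO. Ctrl replicate 4 lay below Sel1l CKO replicate 4, and no other pair of libraries crossed. Its log2 fold change was -0.36 (SE 0.12, limma adjusted p = 0.147; exact permutation test p = 0.0571), and the unadjusted p stayed under 0.05 when any of the 8 libraries was left out, as it did for Nrarp.

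Of the target genes, Nrarp had the smallest p. Nrarp encodes a feedback inhibitor that acts on the Notch1 complex (chromosome 2, 25180758 to 25183339, plus strand). It was at 3.61, 3.92, 4.53 and 5.21 RPKM in Ctrl and at 3.43, 3.19, 2.80 and 2.48 RPKM in Sel1l CKO, from 211 to 508 reads per library. The groups did not overlap, and replicates 3 and 4 were the highest of Ctrl and the lowest of Sel1l CKO. The mean in Sel1l CKO was 68.9% of Ctrl, with a log2 fold change of -0.53 (SE 0.14, limma adjusted p = 0.0746; exact permutation test p = 0.0286). With array weights Nrarp passed (limma adjusted p = 0.0265), where 6.53% of all genes did, and it also passed in replicates 3 and 4 only (limma adjusted p = 0.0327), where 2.66% of all genes did. Within replicates 1 and 2 it was -0.19 and within replicates 3 and 4 -0.88, a difference of -0.69 (SE 0.15, limma interaction, unadjusted p = 0.00252, adjusted p = 0.132).

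Dtx1, a ubiquitin ligase that modulates Notch (chromosome 5, 120680202 to 120711927, minus strand), measured 4.70, 5.58, 5.90 and 5.65 RPKM in Ctrl and 5.41, 6.08, 3.81 and 4.52 RPKM in Sel1l CKO. The groups overlapped, and the low libraries were Sel1l CKO replicates 3 and 4. Its log2 fold change was -0.16 (SE 0.14, limma adjusted p = 0.572), 0.16 within replicates 1 and 2 and -0.48 within replicates 3 and 4. It was -0.26 without Sel1l CKO replicate 2 and -0.04 without Sel1l CKO replicate 3. The sets differed by -0.64 (SE 0.17, limma interaction, unadjusted p = 0.00818, adjusted p = 0.176). By limma, 0 of 10177 genes passed the interaction at an adjusted p under 0.05 and 1718 (16.9%) had an unadjusted p under 0.05, and 4 of the 10 genes did. The log2 fold change was less negative in replicates 3 and 4 for Notch3 and more negative for Nrarp, and it changed sign between the sets for Notch2 and Dtx1.

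Hes1, a transcriptional repressor and a direct target of Notch (chromosome 16, 30064384 to 30067796, plus strand), was at 23.7, 28.7, 90.7 and 59.3 RPKM in Ctrl and at 19.5, 11.5, 28.1 and 31.3 RPKM in Sel1l CKO. Ctrl replicates 3 and 4 were far above the rest, and the groups overlapped over all libraries but not within either set. The mean in Sel1l CKO was 44.6% of Ctrl, with a log2 fold change of -1.05 (95% interval -2.10 to -0.01, limma adjusted p = 0.251; exact permutation test p = 0.143). Replicates 1 and 2 alone gave -0.80, and replicates 3 and 4 alone -1.31. Hes1, Notch3 and Nrarp were lower in every Sel1l CKO library within both sets (3 of 10 genes, against 10.6% of all genes), and none was higher in both (10.1%). With the replicate set as a term, Hes1 passed (limma adjusted p = 0.0233), where 5.73% of all genes did. Its log2 fold change was -0.64 with array weights (limma adjusted p = 0.412). It was -0.70 without Ctrl replicate 3 (limma adjusted p = 0.470) and -0.76 without Sel1l CKO replicate 2 (limma adjusted p = 0.465). In replicates 1 and 2, 6 of the 10 genes were lower in both Sel1l CKO libraries than in both Ctrl libraries and 0 were higher, against 31.0% and 29.5% of all genes. In replicates 3 and 4, 5 were lower and Notch2 was higher, against 25.2% and 23.5%.

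Hes1 was also the 1 gene of the 10 that differed between the replicate sets, higher in replicates 3 and 4 by 1.24 on the log2 scale (SE 0.20, limma adjusted p = 0.0406, genotype in the model), where 0.943% of all genes were called higher. With 1 library left out, the call held without Ctrl replicate 4 or Sel1l CKO replicate 1 and was lost without any of the other 6. The mean Hes1 level in replicates 3 and 4 was 2.86 times that in replicates 1 and 2 in Ctrl and 1.91 times in Sel1l CKO. Over the 8 libraries the profile of Hes1 was most like those of Ier3 (Pearson r = 0.990), Tob2 (r = 0.974) and Socs3 (r = 0.971), as a description over libraries that share genotype and set. The profile of Notch1 was most like those of Prdm2 (r = 0.989), Thra (r = 0.988) and Odf3b (r = 0.985).

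The 10 immediate early genes, which are induced within minutes of stimulation or cell handling, moved with Hes1. Their sum was 381 to 432 RPKM in Ctrl replicates 1 and 2, 1507 to 1587 RPKM in Ctrl replicates 3 and 4, 184 to 277 RPKM in Sel1l CKO replicates 1 and 2 and 534 to 606 RPKM in Sel1l CKO replicates 3 and 4. Junb, the highest of them by RPKM, was at 116 to 592 RPKM in Ctrl and 47.4 to 263 RPKM in Sel1l CKO. All 9 tested immediate early genes had a log2 fold change below 0, against 52.4% of all genes. By limma 0 passed, and 2 were lower at an unadjusted p under 0.05, against 10.3% of all genes. The sum of 6 heat shock genes was 1226 to 1436 RPKM in Ctrl replicates 1 and 2, 2653 to 4150 RPKM in Ctrl replicates 3 and 4 and 1065 to 1202 RPKM in Sel1l CKO, with Hspa8 at the highest mean RPKM (917 to 1402). Of these 6 genes, 4 fell in Sel1l CKO at an adjusted p under 0.05 (limma, against 0.894% of all genes). These were Hspa1a, Hspa1b, Hsph1 and Hsp90aa1. All 6 were lower at an unadjusted p under 0.05, against 10.3% of all genes, and the median log2 fold change was -0.94. The part of these stress genes in the differences of Hes1 and the other Notch genes was not tested.

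**Figure D3:**
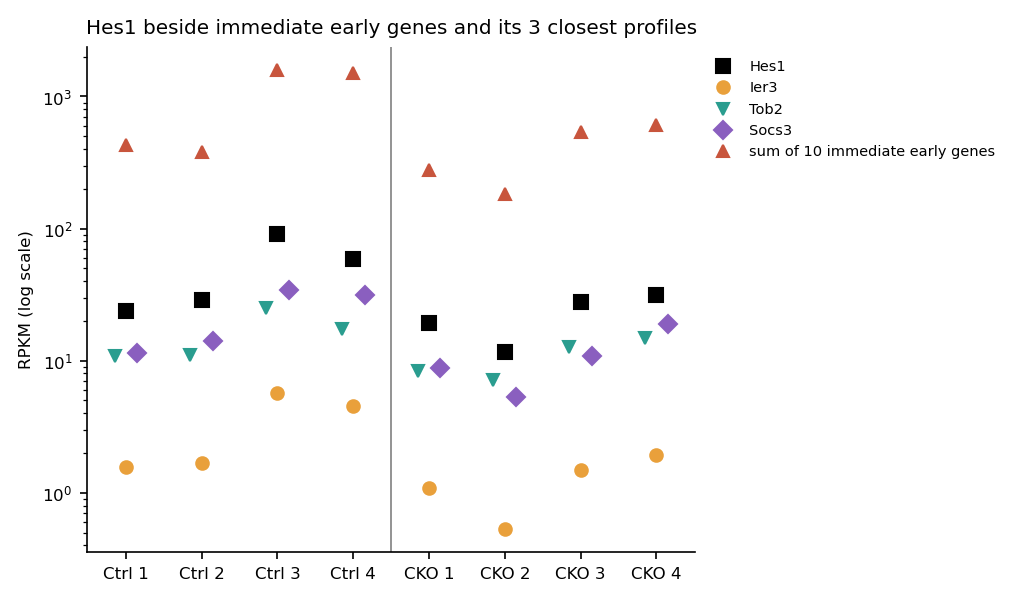
RPKM (log axis) of Hes1, of Ier3, Tob2 and Socs3, and of the sum of 10 immediate early genes in each of the 8 libraries. Each was higher in Ctrl replicates 3 and 4 than in Ctrl replicates 1 and 2, with Hes1 at 59.3 to 90.7 against 23.7 to 28.7.

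Hes5, a related repressor and Notch target (chromosome 4, 154960923 to 154962371, plus strand), was at 1.43, 1.73, 3.16 and 2.27 RPKM in Ctrl and at 1.46, 1.10, 1.53 and 1.22 RPKM in Sel1l CKO. These values rest on 58 to 161 reads per library. As with Hes1, Ctrl replicates 3 and 4 were the highest libraries, and Ctrl replicate 1 lay among the Sel1l CKO values. Hes5 had a log2 fold change of -0.64 (SE 0.23, limma adjusted p = 0.177; exact permutation test p = 0.0857), with -0.31 within replicates 1 and 2 and -0.97 within replicates 3 and 4.

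Myc, a driver of growth and a target of Notch in thymocytes (chromosome 15, 61985391 to 61990374, plus strand), was at 58.1, 64.4, 57.1 and 53.9 RPKM in Ctrl and at 78.2, 59.1, 54.7 and 58.9 RPKM in Sel1l CKO. The groups overlapped, and Sel1l CKO replicate 1 was the high library. Myc had a log2 fold change of 0.09 (95% interval -0.16 to 0.35, limma adjusted p = 0.674), and -0.02 without Sel1l CKO replicate 1.

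**Figure D4:**
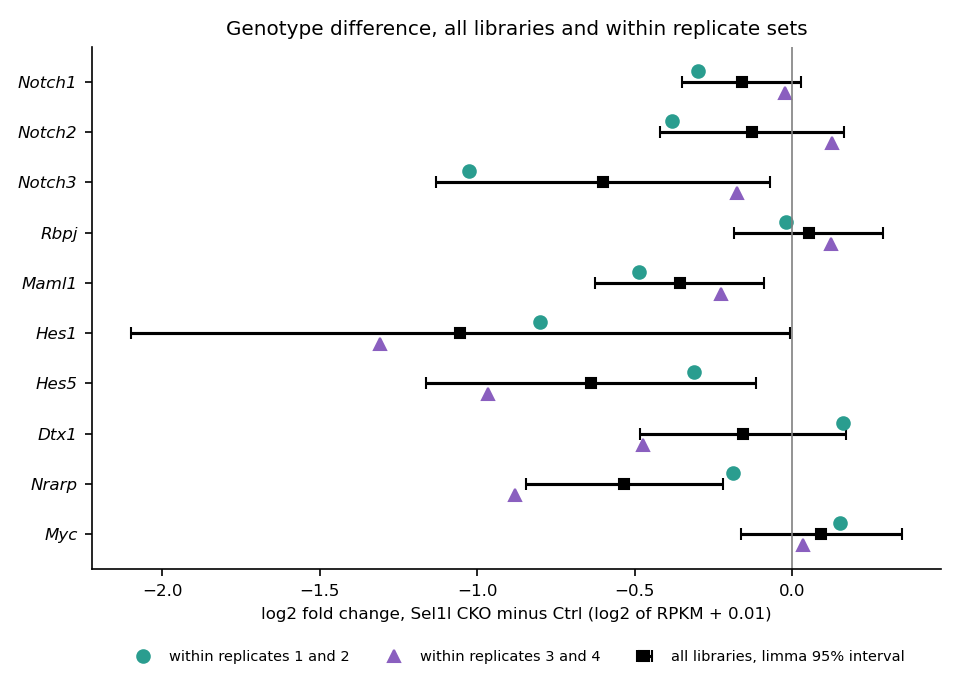
Log2 fold change (Sel1l CKO minus Ctrl, log2 of RPKM + 0.01) of the 10 genes over all 8 libraries with the limma 95% interval (squares), and within replicates 1 and 2 (circles) and 3 and 4 (triangles) without an interval. Notch3 differed more within replicates 1 and 2 (-1.03 against -0.17) and Nrarp more within replicates 3 and 4 (-0.88 against -0.19).

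Around these genes, the rest of the pathway was read from lists, in each of which the gene with the highest mean RPKM is given, a choice that favours genes with short introns. Of 5 Notch ligands and the receptor Notch4, only Jag2 reached the mean RPKM of 0.1 required for the limma test, and Jag2 fell. Jag2, a ligand of the Jagged type, was at 0.778, 0.617, 0.663 and 0.744 RPKM in Ctrl and at 0.371, 0.274, 0.433 and 0.394 RPKM in Sel1l CKO, with no overlap (log2 fold change -0.92, SE 0.15, limma adjusted p = 0.0106). Among 14 tested genes for receptor glycosylation and cleavage, 0 passed by limma (1 higher and 2 lower at an unadjusted p under 0.05, against 9.4% and 10.3% of all genes and 19.7% in either direction), and Psenen, a γ-secretase subunit, had the highest mean RPKM (27.5 to 31.7 RPKM in Ctrl, 27.7 to 32.6 in Sel1l CKO). Among 12 ubiquitin and endocytic regulators, 0 passed by limma, against 3.85% of all genes, and 0 had an unadjusted p under 0.05, against 19.7%. Dtx3, the highest of them by RPKM, was at 21.8 to 28.6 RPKM in Ctrl and at 13.2, 12.3, 26.5 and 29.2 RPKM in Sel1l CKO, low in replicates 1 and 2 alone. Among 18 RBPJ coactivators and corepressors, 0 passed by limma (1 lower at an unadjusted p under 0.05, against 10.3% of all genes). Kat2a, a histone acetyltransferase with the highest mean RPKM of the list, was at 24.4 to 26.4 RPKM in Ctrl and 23.1 to 26.3 in Sel1l CKO.

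Among 12 other tested Notch targets of T cell progenitors, 0 passed by limma. At an unadjusted p under 0.05, 3 were lower (Ptcra, Il7r and Bcl11b), against 10.3% of all genes. The median log2 fold change of the list was -0.12. Ptcra was at 25.8 to 30.5 RPKM in Ctrl and 17.5 to 27.2 RPKM in Sel1l CKO (log2 fold change -0.39, limma adjusted p = 0.151). Tcf7, a T lineage transcription factor and the highest of the list by RPKM, was at 76.2 to 87.1 RPKM in Ctrl and 81.0 to 93.5 RPKM in Sel1l CKO. Of 4 ERAD genes that the study examined downstream of Notch, Syvn1, which encodes the HRD1 ligase, rose by 1.24 on the log2 scale (SE 0.15, limma adjusted p = 0.00186), and Sel1l fell as given above. Calls over all genes were 2.96% higher and 0.894% lower. At an unadjusted p under 0.05, 2 of the 4 ERAD genes were higher (limma), against 9.4% of all genes. Edem1, the highest by RPKM, was at 19.3 to 21.5 RPKM in Ctrl and 20.1 to 26.0 RPKM in Sel1l CKO (limma adjusted p = 0.217). Among 9 MYC partner genes, 0 passed by limma (1 higher and 3 lower at an unadjusted p under 0.05, against 9.4% and 10.3% of all genes). Mxd4 had the highest mean RPKM of them (11.2 to 16.9 and 6.57 to 14.1 RPKM). Among 10 MYC targets, Srm, which encodes spermidine synthase, rose by 0.69 (SE 0.07, limma adjusted p = 8.9e-04), while Cdk4, the highest by RPKM, was at 127 to 138 and 133 to 150 RPKM. Srm was the 1 MYC target called, against 2.96% of all genes called higher. At an unadjusted p under 0.05, 2 of the 10 were higher (limma), against 9.4% of all genes. The log2 fold change was below 0 for 2 of the 10, against 52.4% of all genes.

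**Figure D5:**
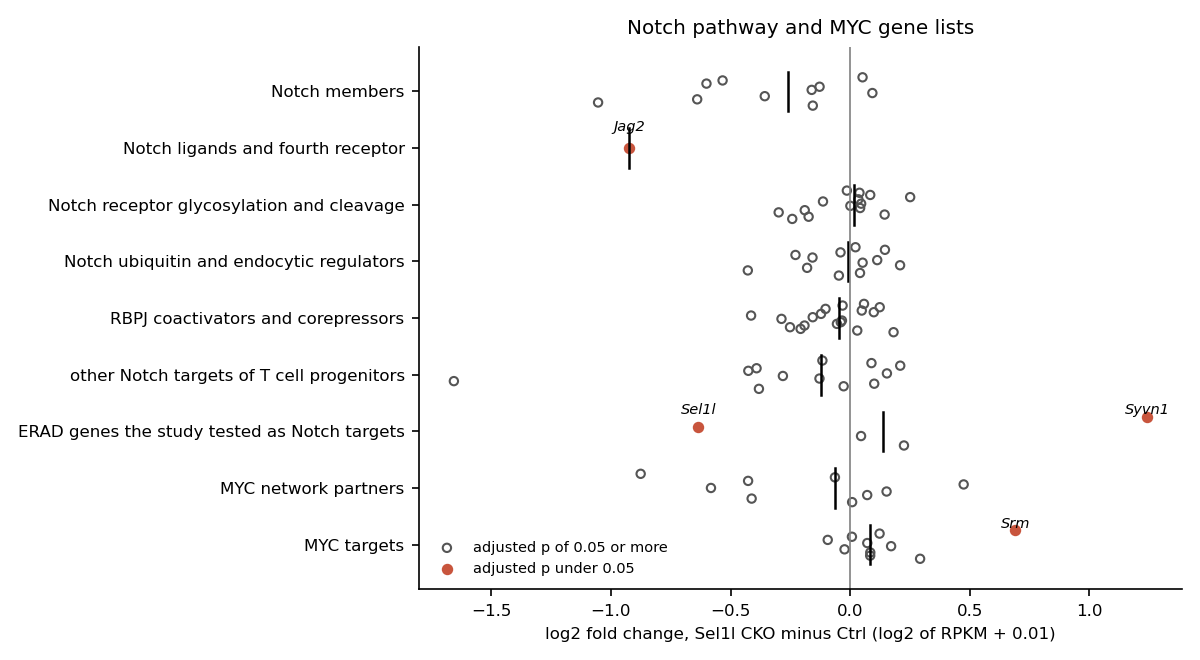
Log2 fold change (Sel1l CKO minus Ctrl, log2 of RPKM + 0.01) of each tested gene by list, with a bar at the list's median and filled points for an adjusted p under 0.05 (limma). Jag2, Sel1l, Syvn1 and Srm were past that threshold, and the 10 Notch genes had a median of -0.26.

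Markers of other cells were tested where their mean RPKM reached 0.1, and Epcam alone among those tested passed. The tested ones were 1 of 8 early progenitor, 1 of 6 B cell and 2 of 8 myeloid markers. They also included 2 of 10 epithelial and stromal and 3 of 6 erythroid markers. Kit, the marker of earlier progenitors with the highest level, was at 0.337 to 0.388 RPKM in Ctrl and 0.187 to 0.344 RPKM in Sel1l CKO. The B cell list summed to 8.22 to 10.2 RPKM in Ctrl and 5.31 to 8.22 RPKM in Sel1l CKO, nearly all from Cd79b (8.18 to 10.1 and 5.28 to 8.17 RPKM). The myeloid list summed to 3.52 to 6.27 and 1.94 to 3.97 RPKM, led by Cd68 (1.04 to 3.99 and 1.25 to 2.41 RPKM). The epithelial and stromal list summed to 4.34 to 6.20 and 2.88 to 3.63 RPKM, led by Epcam, which fell (log2 fold change -0.98, SE 0.14, limma adjusted p = 0.00482), while Foxn1, the regulator that defines thymic epithelium, stayed at or below 0.00366 RPKM. The erythroid list summed to 0 to 1.12 RPKM in Ctrl and 0.465 to 2.66 RPKM in Sel1l CKO, led by Hba-a1 (0 to 0.912 RPKM over the 8 libraries), with Alas2 at 0 throughout. The part of these cells in the differences of the Notch genes was not tested.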

How the data were processed

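DN3 RNA was made into stranded mRNA libraries and sequenced paired-end. The authors aligned reads to GRCm38 with STAR 2.5.2b, obtained counts per protein-coding gene from HTSeq 2.7 and deposited them as RPKM for 8 libraries. The strand setting of the counting is not given in the sources used here, so reads from opposite-strand transcripts that overlap Notch1, Notch3, Rbpj, Maml1, Hes5 and Nrarp cannot be told apart from theirs. With a tolerance of 0.02 reads, 75.8% of genes came out as whole reads with gene spans from GENCODE M21 and 3.03% with exon lengths, so RPKM is scaled to spans with introns, which lowers genes with long introns.

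Groups came from the labelled genotype. Genes whose RPKM averaged 0.1 or more (10177 of 16538) were tested with limma 3.58.1 in R 4.3.3 on log2(RPKM + 0.01), a scale that understates changes of low genes, with genotype alone in the model, a trended prior variance and Benjamini-Hochberg adjustment. Exact permutation tests are two-sided over 70 assignments. Procedures were tested on simulated data. Tables were handled in Python 3.11.15 with pandas 2.3.3. Alternatives changed the pseudocount, filter, scaling, trend, weights, terms and libraries, and the fits of each replicate set alone were added after seeing the data. The members, lists and tests were chosen with earlier results of these data known. The genes named are the 10 members, Sel1l, in each list those past the adjusted p and the one with the highest mean RPKM, the marker with the highest mean RPKM in each marker list, and the 3 closest profiles to Notch1 and Hes1. Others (Ptcra, Il2ra, Il7r, Bcl11b, Foxn1, Alas2, heat shock genes other than Hspa8 and those of the last section) were named after their values were seen.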

Additional observations from a re-analysis of the deposited data

How the results depend on the processing

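The number of the 10 genes called was 0 except for 1 with array weights (Nrarp, -0.64, limma adjusted p = 0.0265), 1 with the replicate set as a term (Hes1, -1.05, limma adjusted p = 0.0233) and 1 in replicates 3 and 4 only (Nrarp, -0.88, limma adjusted p = 0.0327). Over the 22 alternatives (20 for Notch2 and Rbpj, which a mean RPKM of at least 1 removes) Notch1, Notch3, Maml1, Hes1, Hes5 and Nrarp kept their direction. The log2 fold change turned for Notch2 (0.12, replicates 3 and 4 only), Rbpj (-0.021, replicates 1 and 2 only), Dtx1 (0.16, replicates 1 and 2 only) and Myc (-0.018 without Sel1l CKO replicate 1, up to 0.15 without another library). The causes were not tested. All genes called numbered 665 with array weights and 237 to 346 when 1 library was left out, and 271 in replicates 3 and 4 only, against 392. Sel1l was past the threshold at -0.64 and missed it without a filter (-0.64), without the trend (-0.64), with the block (-0.64) and in replicates 3 and 4 only (-0.32), and its log2 fold change lay between -0.74 and -0.54 over the fits without 1 library. The ligand list had 0 called at a mean RPKM of at least 1 with either pseudocount, which removes Jag2, and 0 in each replicate set alone, where fewer libraries enter. Glycosylation and cleavage had 1 with array weights, ubiquitin regulators 1 in replicates 1 and 2 only, other Notch targets 1 with array weights, the block or the set term and 0 to 1 with 1 library left out, and MYC partners 1 with the block, the set term or replicates 1 and 2 only. The ERAD list had 1 in place of 2 with no filter, no trend, the block or replicates 3 and 4 only, and 1 to 2 with 1 library left out. The 1 gene called between replicate sets became 0 with no filter or no trend, and 0 to 1 with 1 library left out.

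To look for pairs, each gene's genotype mean was subtracted, and these deviations were correlated between Ctrl and Sel1l CKO libraries over the tested genes. The deviations of same-numbered libraries correlated at 0.078, 0.098, 0.22 and 0.056. Not every library correlated best with its own number, so the labels and data do not pair them. Ctrl replicate 3 gave 0.22 and 0.24 with Sel1l CKO replicates 3 and 4, and -0.18 and -0.23 with replicates 1 and 2. Ctrl replicate 4 gave -0.063 to 0.056 with all 4. With the replicate block, 278 genes and 0 of the 10 were called. A count model on the recovered reads with edgeR was not run. Hes5 and Nrarp rest on few reads.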

Other observations

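These genes of the pathway lists were picked after their values were seen, and none passed the adjusted threshold. Hey1, a HES-related Notch target, was at 0.303, 0.274, 3.05 and 2.90 RPKM in the Ctrl libraries by replicate number, against 0.108, 0.0763, 0.647 and 1.19 RPKM in Sel1l CKO (log2 fold change -1.66, SE 1.10, limma adjusted p = 0.433), so in both genotypes replicates 3 and 4 were above replicates 1 and 2. Mycn, a paralogue of Myc, was at 2.42, 2.56, 5.33 and 3.53 RPKM in Ctrl and at 1.47, 1.5, 2.08 and 2.21 RPKM in Sel1l CKO, with no overlap (log2 fold change -0.88, SE 0.26, limma adjusted p = 0.109). Adam10, a protease that cuts the receptor, was at 0.972 to 1.09 RPKM in Ctrl and 0.819 to 0.921 RPKM in Sel1l CKO, with no overlap (log2 fold change -0.24, SE 0.08, limma adjusted p = 0.132).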
